A study of Mus musculus with 16 samples.

Results

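The 39 genes described here encode the contractile apparatus and the fuel metabolism of skeletal muscle. They were chosen by name, from what their products do, out of the 25054 genes of a raw RNA-seq count table of mouse osteosarcomas. The choice was made with earlier results of these data known. All 39 genes were found and passed the filter on low counts. The 8 tumors labeled KO came from 8 mice that carried OsxCreERT2+/- together with p53fl/fl, Rb1fl/fl and Arid1afl/fl. The 8 tumors labeled WT carried OsxCreERT2+/-, p53fl/fl and Rb1fl/fl without Arid1afl/fl, so both groups carried floxed p53 and Rb1 alleles and a tamoxifen-inducible Cre driven by the *Osterix* promoter, which is active in pre-osteoblasts. All mice had received 400 ug of tamoxifen per g at 1 month of age, were older than 6 months and included both sexes. By the codes in the sample titles, the WT tumors came from 4 mice. Mouse N42 gave 4 of them and mouse N43 gave 2, while N25 and N215 gave a single tumor. The WT titles name a body site and the KO titles name none, so tumors are called below by mouse and, for WT, by site.

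Skeletal muscle fibers are filled with sarcomeres, in which thin actin filaments slide along thick myosin filaments between Z-discs. Troponin on the thin filament responds to calcium, which is released from the sarcoplasmic reticulum on excitation and pumped back afterwards. Many of these proteins exist as a fast and a slow isoform, each made by its own gene. Fast fibers rely mainly on glycogen and creatine phosphate, and slow fibers on oxygen. Osteosarcoma is a malignancy of bone-forming cells, which do not build sarcomeres. In bulk RNA, fewer cells of a type and less RNA per cell cannot be told apart.

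The promoters of *Acta1*, *Ttn*, *Klhl41* and *Tnni1* are printed because they hold the motifs usually discussed for muscle genes. The windows run from 250 bases before to 50 bases after the RefSeq transcription start (GRCm38.p6), 5′ to 3′ on the strand of the gene. Capitals mark an E-box (CANNTG, the core bound by myogenic basic helix-loop-helix factors), the MEF2 motif, or the CArG box, the motif of serum response factor. The windows lie at chr8:123894726-123895025 (minus strand) for *Acta1*, chr2:76982498-76982797 (minus strand) for *Ttn*, chr2:69669870-69670169 (plus strand) for *Klhl41* and chr1:135799171-135799470 (plus strand, the first of 2 windows) for *Tnni1*.
Acta1: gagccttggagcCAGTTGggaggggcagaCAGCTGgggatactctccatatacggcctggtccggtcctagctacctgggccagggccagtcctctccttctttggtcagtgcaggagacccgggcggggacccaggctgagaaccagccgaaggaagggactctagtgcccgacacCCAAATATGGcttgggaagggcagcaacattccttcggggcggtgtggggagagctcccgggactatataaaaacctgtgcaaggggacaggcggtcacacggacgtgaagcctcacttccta
Ttn: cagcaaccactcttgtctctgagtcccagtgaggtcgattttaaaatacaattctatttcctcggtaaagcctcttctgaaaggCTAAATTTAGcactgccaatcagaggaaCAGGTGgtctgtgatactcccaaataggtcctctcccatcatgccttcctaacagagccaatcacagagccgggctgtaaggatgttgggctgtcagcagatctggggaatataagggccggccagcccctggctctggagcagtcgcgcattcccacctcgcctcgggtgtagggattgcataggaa
Klhl41: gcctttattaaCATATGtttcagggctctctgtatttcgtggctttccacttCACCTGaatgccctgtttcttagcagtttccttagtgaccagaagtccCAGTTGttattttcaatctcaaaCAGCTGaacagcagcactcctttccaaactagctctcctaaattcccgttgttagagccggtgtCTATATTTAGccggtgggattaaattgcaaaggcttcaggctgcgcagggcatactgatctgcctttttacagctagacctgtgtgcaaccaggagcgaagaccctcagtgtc
Tnni1: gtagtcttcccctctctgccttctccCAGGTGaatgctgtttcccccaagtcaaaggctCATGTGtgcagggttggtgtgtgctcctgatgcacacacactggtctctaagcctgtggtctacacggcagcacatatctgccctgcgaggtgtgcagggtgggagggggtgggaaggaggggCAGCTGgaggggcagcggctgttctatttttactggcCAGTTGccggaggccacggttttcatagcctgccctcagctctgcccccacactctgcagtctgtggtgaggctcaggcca
The CArG box of *Acta1* began 73 bases before the start. The MEF2 motif began 166 bases before the start in *Ttn* and 63 bases before it in *Klhl41*. The windows of *Klhl41* and *Tnni1* each held 4 E-boxes, that of *Acta1* 2 and that of *Ttn* 1. Of the 39 genes, 30 had a window. An E-box was found for 27 of the 30 (90.0%), against 75.0% of all 27025 genes with a window. The MEF2 motif was found for 5 of the 30 (16.7% against 3.70%), namely *Klhl41*, *Pgam2*, *Pvalb*, *Ttn* and *Xirp2*. The CArG box was found for 3 (10% against 1.81%), namely *Acta1*, *Ldb3* and *Myl3*. Both strands were covered, since each pattern equals its own reverse complement. A match describes the letters of a window and is no evidence of binding.

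The libraries differed in depth and in RNA of other tissues. Counts on genes totaled between 1109487 and 15059640 in KO and between 7806160 and 16962329 in WT. In the 2 shallowest libraries, Massa and Grilka, 3 counts corresponded to 6.69 and 4.03 CPM (counts scaled to a common library size), so their low levels rest on single reads. *Arid1a* had a lowest value of 107, a median of 179 and a highest value of 269.9 CPM in KO, and 125, 166 and 236 CPM in WT (edgeR, adjusted p = 0.715). This count covers the whole gene and not only its floxed part, so it does not check the labels. The summed level of 12 osteoblast genes ranged from 852 to 63163 CPM in KO and from 3526 to 94264 CPM in WT. Of these 12 genes, counted after their values were seen, 3 were at 0 in Massa (*Sp7*, *Bglap* and *Bglap2*), 2 in N215 R hind limb (*Bglap* and *Bglap2*), 1 in Prince (*Dmp1*) and none in the other 13 tumors. Other genes of the list were present in the same tumors, with *Sp7* at 147 CPM in N215 R hind limb and *Col1a1* at 1938 CPM in Massa. The 4 lung genes summed to 10182 CPM in Massa and 25607 CPM in N25 lung, and to at most 9.40 CPM in the other 14 tumors.

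Skeletal muscle RNA was concentrated in 2 KO tumors. The 39 genes took 22.2% of all counts in Montana and 19.5% in Oregon. The other KO tumors had between 0.00784% in Massa and 0.126% in Medusa. Such shares also depend on the rest of the library. The 20 most abundant genes held 72.8% of all counts in Massa and 70.3% in Grilka, against at most 29.3% in WT. Massa was the lowest KO tumor by share, whereas Zelda was the lowest by summed CPM (158, against 194 in Massa). In WT the share was highest in N43 pelvis at 4.31%, followed by N215 R hind limb at 1.67% and N43 spine at 1.30%, and lowest in N42 R femur at 0.0509%. As summed CPM, KO had a lowest value of 158, a median of 618 and a highest value of 313662, and WT had 432, 6271 and 35319. KO thus held the highest and the lowest tumors, and its median was the lower one. The group medians of log2 summed CPM were 9.26 in KO (SD 4.55, n = 8) and 12.56 in WT (SD 2.30, n = 8). Montana and Oregon were the 2 highest tumors for 32 of the 39 genes, an order that 9.24% of all genes tested showed. All 39 genes had reads in both, whereas 27 were at 0 in Massa and 12 each in Prince and Zelda. The summed osteoblast level was 2850 CPM in Montana and 3152 CPM in Oregon, below every WT tumor, and lower still in Prince at 852 CPM. Its part in the muscle values was not tested.

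**Figure D1:**
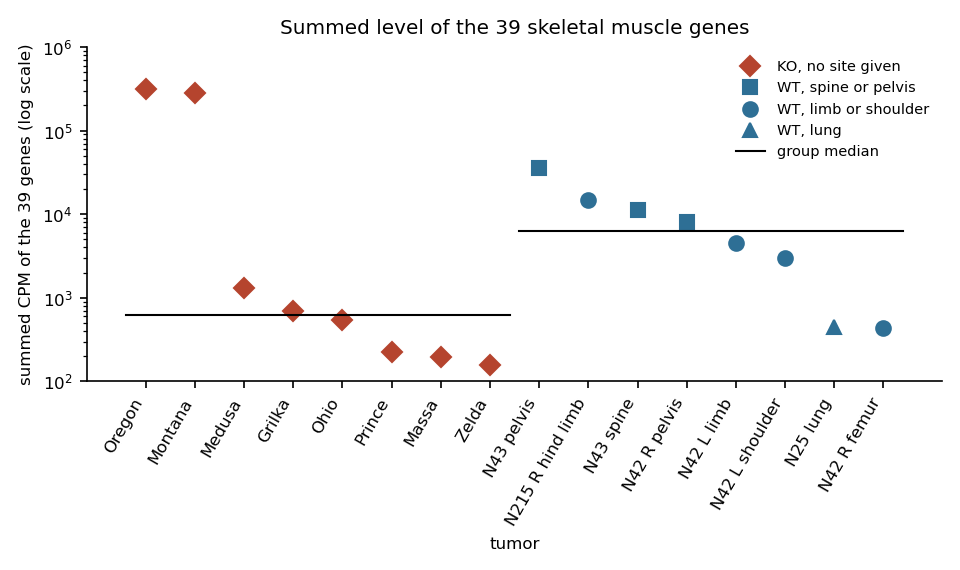
Summed CPM of the 39 skeletal muscle genes in each tumor, on a log scale. Symbols give group and labeled site, and lines the group medians (618 in KO, 6271 in WT). Oregon and Montana lie above all other tumors, and the other 6 KO tumors lie between 158 and 1303.

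**Figure D2:**
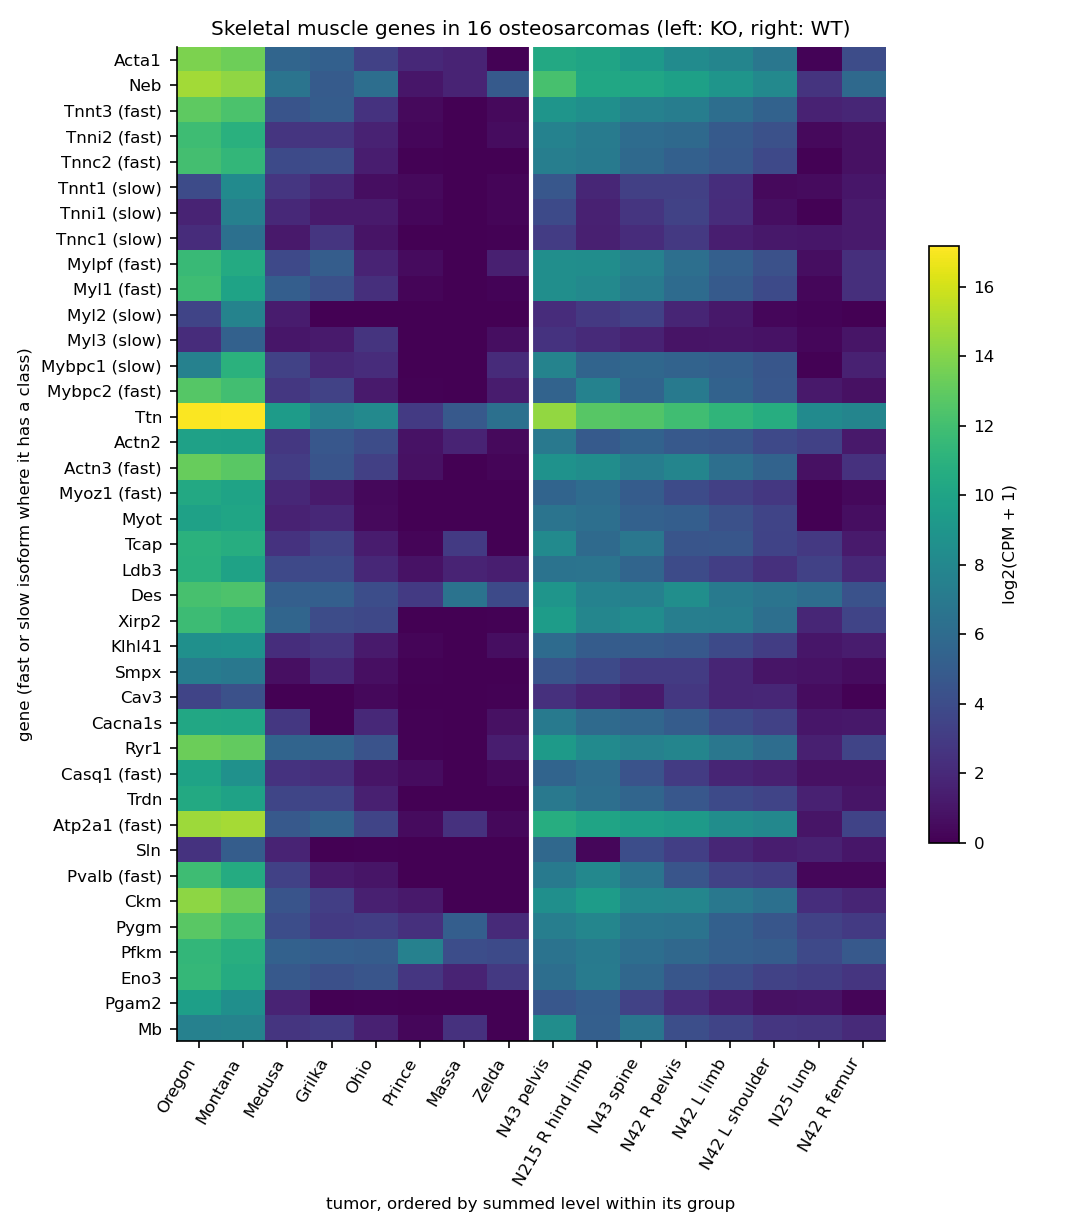
Level of each of the 39 genes in each of the 16 tumors as log2(CPM + 1), with KO at left and WT at right, each ordered by summed level. The columns of Oregon and Montana are the brightest for most genes, and Oregon is darker than Montana for the 6 slow isoforms.

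Titin carried the most counts of the 39 genes in 14 of the 16 tumors, the exceptions being Massa (*Des*) and Prince (*Pfkm*). *Ttn* encodes titin, the spring that runs from Z-disc to M-line, and lies on chromosome 2 from 76703980 to 76982547 with 116825 exonic bases. It was at 149039 CPM in Montana and 139650 CPM in Oregon, between 6.72 and 702 CPM in the other KO tumors, and between 227 and 21127 CPM in WT (median 3148 CPM). It held 52.8% of the counts of the 39 genes in Montana, 44.5% in Oregon and between 45.4% and 64.8% in WT, but 3.01% in Prince. Per kilobase of exon, however, *Ttn* ranked 12 of 39 in Montana and 16 of 39 in Oregon. *Acta1*, skeletal alpha-actin (chromosome 8, 123891769 to 123894751), ranked 1 in Oregon, 2 in Montana and 1 in 6 of the 8 WT tumors. Its level was 14506 CPM in Oregon and 10669 CPM in Montana, between 0.0678 and 47.7 CPM in the other KO tumors, and between 0.129 and 1345 CPM in WT (median 269 CPM). Actin genes are nearly identical in coding sequence, so reads may be shared with *Actc1* or *Acta2*. *Neb*, nebulin, which sets the length of the thin filament, was at 28186 CPM in Oregon and 20994 CPM in Montana, between 1.08 and 98.4 CPM in the other KO tumors, and between 5.04 and 4623 CPM in WT. All 3 genes had reads in all 16 tumors.

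Fast and slow troponins differed in which tumors were high. *Tnnt3*, *Tnni2* and *Tnnc2* encode the fast forms of the subunits that bind tropomyosin, inhibit actomyosin and bind calcium. *Tnni2* was at 3632 CPM in Oregon and 1946 CPM in Montana, at most 5.37 CPM in the other KO tumors, and between 0.323 and 197 CPM in WT (median 42.8 CPM). *Tnnt3*, which lies 54426 bases from *Tnni2* on chromosome 7, was at 7751 CPM in Oregon and 5200 CPM in Montana, and at most 494 CPM in WT. *Tnnc2* was at 4239 and 2633 CPM there, and at most 161 CPM in WT. All 3 fast genes were therefore above every WT tumor in both Oregon and Montana. The slow *Tnnt1* was at 303 CPM in Montana but 13.98 CPM in Oregon, below the 24.4 CPM of N43 pelvis. *Tnni1*, the slow troponin I, was at 182 CPM in Montana and 2.24 CPM (8 counts) in Oregon, and reached 13.8 CPM in N43 pelvis. *Tnnc1*, which the heart uses as well, was at 82.1 CPM in Montana, 3.63 CPM in Oregon and at most 7.37 CPM in WT. In Oregon all 3 slow troponins lay within the range of the WT tumors.

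The myosin light chains and myosin binding proteins C split in a like way. *Mylpf*, the fast regulatory light chain, was at 3197 CPM in Oregon, 1466 CPM in Montana and at most 366 CPM in WT. *Myl1*, the fast essential chain, was at 3730 CPM in Oregon, 989.7 CPM in Montana and at most 356 CPM in WT. The slow and cardiac chains were higher in Montana. *Myl2* was at 209 CPM in Montana, 10.6 CPM in Oregon and at most 9.07 CPM in WT, and 5 of the 8 KO tumors had no read of it. *Myl3* was at 39.03 CPM in Montana and at most 4.96 CPM in any other tumor. *Mybpc1*, the slow-type binding protein of the thick filament, was at 1982 CPM in Montana, 189.6 CPM in Oregon and 209.8 CPM in N43 pelvis. *Mybpc2*, its fast-type relative, was instead higher in Oregon, at 6555 against 4123 CPM, and at most 197 CPM in WT.

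Genes of the Z-disc and the scaffold were high in both Oregon and Montana. *Actn3*, the alpha-actinin of fast fibers, was at 9169 CPM in Oregon, 7139 CPM in Montana and between 0.710 and 439.8 CPM in WT. *Actn2*, the alpha-actinin of striated muscle in general, was at 930.4 and 870.1 CPM there and at most 123 CPM in WT. For *Myoz1*, *Myot*, *Tcap*, *Ldb3*, *Xirp2*, *Klhl41* and *Smpx*, which anchor or maintain the Z-disc and the myofibril, the level in Oregon was 0.811 to 1.998 times that in Montana. Their highest WT values ranged from 21.5 CPM for *Smpx* to 728 CPM for *Xirp2*, and *Myoz1* and *Myot* had no read in N25 lung. *Des*, desmin, the intermediate filament of muscle, was at 5398 CPM in Montana, 4606 CPM in Oregon, between 6.72 and 91.5 CPM in the other KO tumors and between 18.7 and 496 CPM in WT. Smooth muscle makes desmin too, and *Des* had reads in all 16 tumors.

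Among genes of excitation and calcium handling, the fast calcium pump was the most abundant per length in Oregon and Montana. *Atp2a1*, which returns calcium to the sarcoplasmic reticulum of fast fibers, was at 30414 CPM in Montana, 26609 CPM in Oregon, at most 42.97 CPM in the other KO tumors and between 0.968 and 1710 CPM in WT (median 501 CPM). Per kilobase it ranked 1 of the 39 genes in Montana and 2 in Oregon. *Ryr1*, the calcium release channel, was at 10106 CPM in Oregon, 8605 CPM in Montana and at most 668 CPM in WT. *Cacna1s*, the voltage sensor that opens this channel, reached 1244 CPM in Oregon and 137 CPM in WT. *Trdn*, triadin, a partner of the channel, reached 1387 and 122 CPM. *Casq1*, the calcium store, and *Pvalb*, the calcium buffer of fast fibers, were 2.40 and 2.385 times as high in Oregon as in Montana. The membrane and inhibitor genes were low. *Cav3*, the caveolin of the muscle membrane, was at 18.4 CPM in Montana, 10.3 CPM in Oregon, at most 0.286 CPM in the other KO tumors and between 0.0568 and 5.83 CPM in WT. *Sln*, sarcolipin, a small inhibitor of the pump, was highest in N43 pelvis at 54.4 CPM, against 32.9 CPM in Montana and 4.75 CPM in Oregon.

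The metabolic genes were led per length by creatine kinase in Oregon and Montana. *Ckm* was at 19502 CPM in Oregon, 10436 CPM in Montana, at most 21.3 CPM in the other KO tumors and between 2.39 and 734 CPM in WT (median 179 CPM). *Pygm*, which breaks down glycogen, was at 7069 and 3840 CPM in Oregon and Montana and between 6.47 and 232 CPM in WT. *Eno3* and *Pgam2*, the muscle forms of enolase and phosphoglycerate mutase, reached 2762 and 814 CPM in Oregon, against 138 and 34.8 CPM in WT. These 4 genes were highest in Oregon, and N215 R hind limb was the highest WT tumor for each. *Pfkm*, muscle phosphofructokinase, was present in all tumors, with no value below 13.04 CPM. It was at 2721 CPM in Oregon and 1786 CPM in Montana, and Prince came next at 188 CPM (2270 counts), above the WT highest of 130.3 CPM. *Mb*, myoglobin, which stores oxygen, was highest in N43 pelvis at 339.6 CPM, against 206 CPM in Montana and 183 CPM in Oregon.

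Some of these counts may hold reads of other genes. Of the 39 genes, 20 overlap another annotated gene. For 4 of them an antisense neighbor had over 10% of their mean count, namely *Nisch* for *Tnnc1*, *Pth1r* for *Myl3*, *Senp1* for *Pfkm* and *Apol6* for *Mb*. Whether counting used the strand is not given in the sources used here, so the reads of such neighbors cannot be told apart where they overlap.

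The comparison of KO with WT asked whether Arid1a-floxed tumors differed in these genes. None of the 39 passed the test (edgeR quasi-likelihood test, adjusted p threshold 0.05), against 618 of 15413 genes tested (4.01%). At an unadjusted p under 0.05 there were 8 of the 39 and 3546 of all genes (23.0%), so the members were near the background. DESeq2 was fitted to 25054 genes, of which 4976 got no adjusted p. It called 2517 genes in all and 1 of the 39, *Des*, lower in KO. The smallest edgeR adjusted p was 0.0794, for *Pfkm*, with a log2 fold change of 3.40 (SE 1.09). The fitted log2 fold change was above 0 for 37 of the 39 and below 0 for *Sln* (−1.01) and *Mb* (−0.33), with a median of 2.89 against 0.0969 over all genes. Further genes are given as examples, picked by role after values were seen. It was 2.77 (SE 1.81, edgeR adjusted p = 0.375) for *Acta1*, 4.06 (SE 2.01, adjusted p = 0.236) for *Ckm* and 3.56 (SE 1.96, adjusted p = 0.284) for *Atp2a1*. It was 2.78 for *Ttn*, 3.46 for *Tnni2*, 2.74 for *Tnnt1* and 0.70 for *Cav3*. For 37 genes the KO mean of CPM was above the WT mean, for 37 the KO median was below the WT median, and for 35 both held, as for 14.3% of all genes tested. KO and WT values overlapped for all 39 genes, whereas they did not overlap for 0.415% of all genes tested. WT tumors of the same mouse were entered as separate samples, and the shares over all genes depend on that. With counts summed per mouse, edgeR called 10 of 16007 genes and 0 of the 39. With the mouse as a random effect, limma-voom called 17 of 15413 genes and 0 of the 39.

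The direction rested on Montana and Oregon. Without them, a comparison added after the values were seen, all 39 fitted log2 fold changes were below 0, with a median of −4.06 against 0.0432 over all genes. Since the tumors were left out for their high values of these same genes, lower values in KO follow in part from that choice, and the values are a description with no test. In that fit 1 member, *Cav3* (log2 fold change −4.58, SE 1.06), and 1.22% of all genes were past the threshold and lower in KO, and nothing is read from this. Of the 6 KO tumors, 4 had no read of *Cav3* and the others had 3 counts and 1 count, so its fitted value depends on the prior count. *Acta1* was at −4.82 (SE 1.48), *Ckm* at −5.33 (SE 1.40) and *Atp2a1* at −5.49 (SE 1.47). *Pfkm* was at −0.07 (SE 0.60) and *Eno3* at −1.57 (SE 0.76). With all 16 tumors entered, the sign of the median over the 39 genes depended on the method. It was 2.89 with edgeR, −1.61 with DESeq2 at default settings and −1.58 with limma-voom. How each method treated the high counts of Montana and Oregon was not examined, so these medians give no separate evidence of lower values in KO. The median total was lower in KO (5367670 counts) than in WT (14828152 counts), with overlapping ranges, and the part of depth in these values was not tested.

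**Figure D3:**
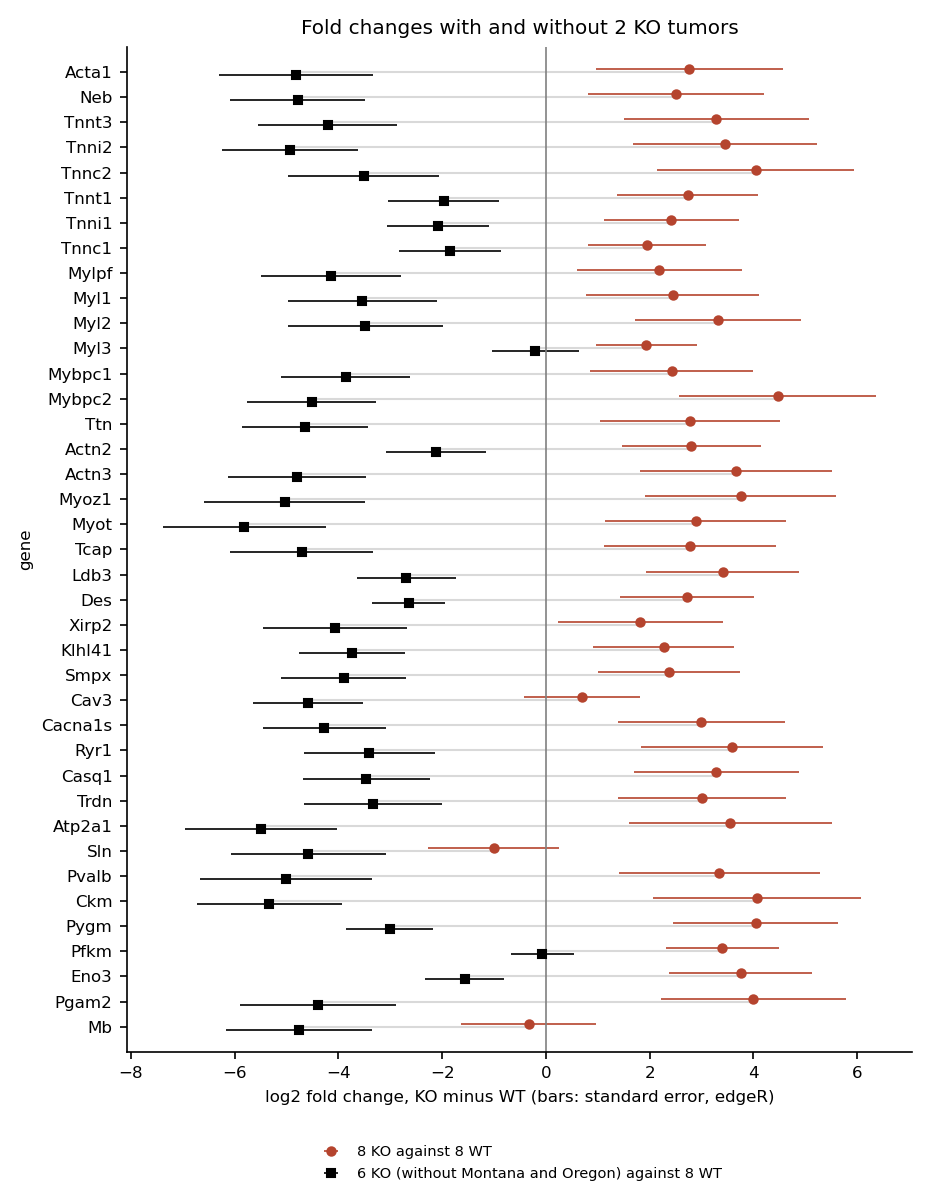
Log2 fold change of each of the 39 genes, KO minus WT, with bars of 1 standard error (edgeR). Circles use 8 KO tumors and squares 6, without Montana and Oregon, each against 8 WT tumors. All 39 squares lie below 0, and 37 of the 39 circles lie above it.

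The spread among KO tumors was wide, as it was for other genes. The standard deviation of log2 CPM was larger in KO than in WT for all 39, with a median ratio of 1.98. The same held for 90.4% of all genes tested, with a median ratio of 2.01.

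The balance of fast and slow isoforms was measured in 6 pairs, namely troponins T, I and C, the regulatory and the essential light chain, and myosin binding protein C. The log2 ratio of counts, fast over slow, is compared only between tumors, since the genes differ in length. Its median over the pairs was 9.52 in Oregon, from 104076 fast and 800 slow counts, and 3.76 in Montana, from 64131 and 10970 counts. Oregon was above Montana in all 6 pairs. In WT the median was 6.11 in N215 R hind limb, 4.43 in N42 L shoulder, 4.39 in N43 pelvis, 4.15 in N43 spine, 4.01 in N42 L limb and 3.38 in N42 R pelvis. Montana lay within the range of these 6 WT tumors and Oregon above it. Per kilobase of exon the fast gene was the higher one in all 6 pairs in Montana, Oregon and 5 of these 6 WT tumors, and in 5 pairs in N43 pelvis, where *Mybpc1* exceeded *Mybpc2*. The other 8 tumors had at most 548 counts on the 12 genes, so their ratios are imprecise. Over the tumors with at least 100 counts on these genes, the group medians were 2.45 in KO (SD 3.83, n = 5) and 4.08 in WT (SD 1.79, n = 8), a difference smaller than the SD in KO. With all 8 KO tumors the KO median was 1.98, but Massa had no count on the pairs, so that its ratio was set by the added 0.5.

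**Figure D4:**
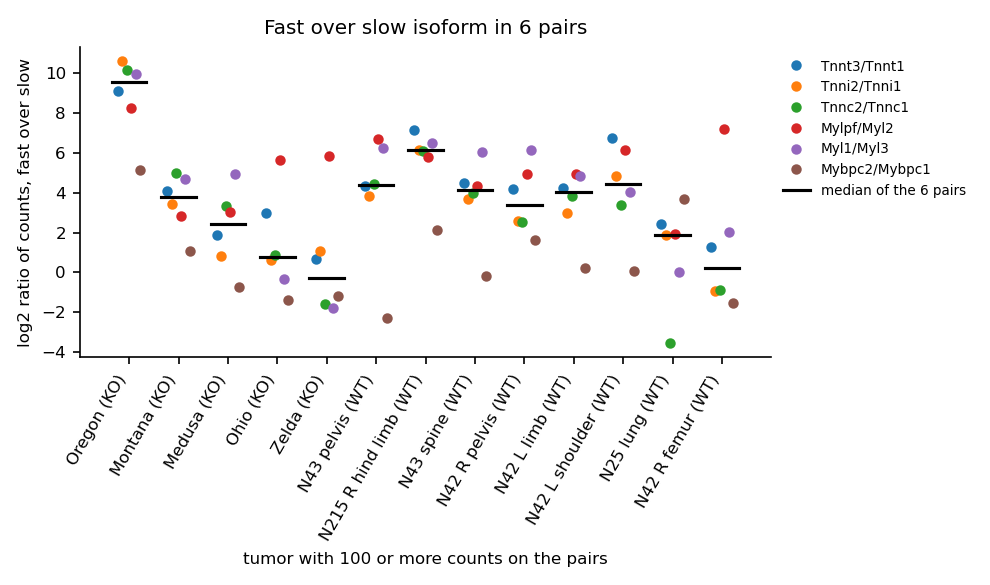
Log2 ratio of counts, fast over slow isoform, for 6 pairs (points) and their median (bar) in the 13 tumors with 100 or more counts on the pairs. Ratios are not corrected for gene length, so only tumors are to be compared. Oregon, with a median of 9.52, lies above the others, and Montana, at 3.76, lies among the WT tumors.

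Each of 11 muscle genes was also set against a relative that is not specific to skeletal muscle, such as *Ckm* against the brain-type creatine kinase *Ckb*. The median log2 ratio of counts was 6.89 in Oregon and 5.66 in Montana. In the other KO tumors it ranged from −8.55 in Zelda to −2.37 in Medusa, and in WT from −4.97 in N42 R femur to 1.38 in N43 pelvis. Per kilobase of exon the muscle form was the higher one in all 11 pairs in Oregon, Montana and N43 pelvis, in 10 in N215 R hind limb, in 8 in N43 spine, in 6 in N42 R pelvis, in 5 in N42 L limb and in 4 in N42 L shoulder. In N42 R femur, N25 lung and the other 6 KO tumors it was so in 1 or 2 pairs. In Prince the ratio of *Pfkm* to *Pfkp* was 2.66, while the other 10 ratios ranged from −10.19 to −3.41. The group medians were −4.07 in KO (SD 5.61, n = 8) and −0.64 in WT (SD 2.44, n = 8). None of the 11 relatives passed in KO against WT (edgeR), with adjusted p from 0.244 for *Eno1* to 0.986 for *Actn1*.

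**Figure D5:**
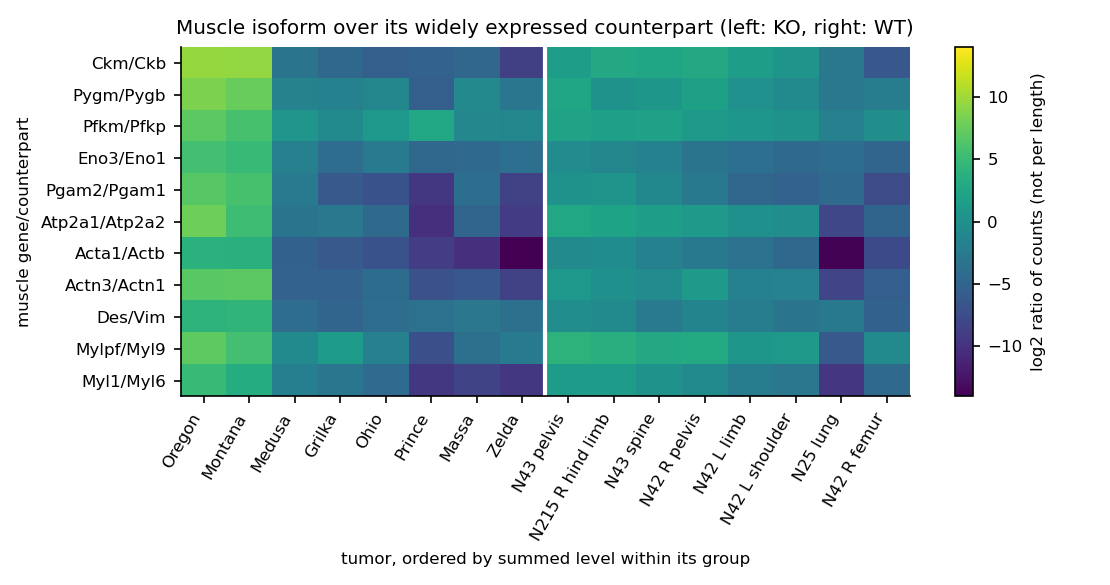
Log2 ratio of counts of 11 muscle genes over a relative not specific to skeletal muscle in each tumor, with KO at left and WT at right, each ordered by summed muscle level. Ratios are not corrected for gene length. Oregon and Montana are above 0 in every pair, with medians of 6.89 and 5.66, and in Prince *Pfkm* over *Pfkp* stands out at 2.66.

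The WT sites allowed a comparison of 4 limb and shoulder tumors (N215 R hind limb and N42 R femur, L limb and L shoulder) with 3 spine and pelvis tumors (N43 spine, N43 pelvis and N42 R pelvis). Only N42 is on both sides, so site and mouse are largely confounded. None of the 39 genes passed (edgeR), where 0% of 17131 genes tested did. At an unadjusted p under 0.05 there were 7 of the 39 and 641 of all genes (3.74%). DESeq2 called 31 of 25054 genes and 2 of the 39, *Sln* (adjusted p = 0.00119) and *Tnnc1* (adjusted p = 0.0127). All 39 fitted log2 fold changes, limb and shoulder minus spine and pelvis, were below 0, with a median of −1.26 against 0.0076 over all genes. Those of *Sln*, *Mb*, *Tnnt1*, *Tcap* and *Tnni1* were the lowest. The value was −4.21 (SE 0.85) for *Sln*, −3.52 (SE 1.10) for *Mb*, −2.84 (SE 0.78) for *Tnnt1*, −2.37 (SE 0.60) for *Tnni1* and −1.94 (SE 0.38) for *Tnnc1*, each with an edgeR adjusted p of 0.974. It was −1.13 (SE 1.14) for *Acta1* and −0.31 (SE 1.27) for *Ckm*. With the mouse as a covariate the values moved to −2.22 for *Sln*, −1.38 for *Mb* and −1.82 for *Ckm*, again with no gene called.

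Values by tumor are given for *Sln* and *Mb*, which were picked because their fitted values were the lowest. *Sln* was at 54.4, 15.4 and 8.17 CPM in N43 pelvis, N43 spine and N42 R pelvis. It was at 0.227, 1.08, 2.58 and 1.59 CPM in N215 R hind limb and N42 R femur, L limb and L shoulder. *Mb* was at 339.6, 102 and 16.5 CPM against 35.96, 3.18, 10.3 and 5.55 CPM in the same order, and these overlapped. N215 R hind limb stood apart from the other limb tumors. It had the highest *Ckm* and *Pvalb* of any WT tumor, at 734 and 257 CPM, and the lowest *Sln*. Without it the median of the 39 fold changes was −2.72, and 34 of the 39 and 1058 of all genes (6.33%) had an unadjusted p under 0.05, with none called by edgeR. It was singled out after its muscle values were seen, so that this is a description.

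Within a mouse, nearly all members ordered the tumors alike. In N43, 37 of the 39 genes were higher in the pelvis than in the spine tumor. In N42, the R pelvis tumor was above the L shoulder tumor for 39 genes, above the R femur tumor for 38 and above the L limb tumor for 37. The L limb tumor was above the L shoulder tumor for 38, and the L shoulder tumor above the R femur tumor for 35. The 4 tumors of N42 spanned a summed level of 432 to 7973 CPM. These counts describe single libraries, are given without the share over all genes, and carry no test.

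Other genes of skeletal muscle had high values in the same tumors. Of 36 further genes of muscle structure and metabolism in the table, 32 were tested and none passed in KO against WT (edgeR), with a median log2 fold change of 2.80. Montana and Oregon were the 2 highest tumors for 31 of the 36. *Fbxo32*, a ubiquitin ligase of muscle atrophy, was at 1992 CPM in Oregon, 1508 CPM in Montana and at most 576 CPM in WT. *Myom1*, of the M-line, was at 2561 CPM in Oregon, 1759 CPM in Montana and at most 201 CPM in WT. The adult myosin heavy chains, the motors of the fiber types, differed between Oregon and Montana, and 0 of the 4 passed in KO against WT. *Myh4*, of the fastest fibers, was at 70541 CPM in Oregon and 31730 CPM in Montana. *Myh1* and *Myh2*, of the other fast fibers, were higher in Montana (5906 and 1474 CPM) than in Oregon (1444 and 581 CPM).

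Genes of developing or regenerating muscle were highest in sum in the same 2 tumors. Of 12 in the table, 7 were tested and none passed in KO against WT (edgeR). Their summed level was 433 CPM in Oregon, 364 CPM in Montana, 142 CPM in N43 pelvis and 110.4 CPM in N42 R pelvis. Gene by gene, Montana and Oregon were the 2 highest tumors for only 7 of the 12. *Myh8*, the perinatal myosin, was at 82.8 and 50.5 CPM in Oregon and Montana and at 40.5 and 35.9 CPM in N43 pelvis and N42 R pelvis. In N215 R hind limb, whose summed level of the 39 genes was above that of N42 R pelvis, it was at 0.113 CPM. The sum also includes *Myf6*, a myogenic factor of mature fibers. *Myf6* was at 126 CPM in Oregon, 118 CPM in Montana, 39.6 CPM in N43 pelvis and 10.2 CPM in N215 R hind limb. *Cdh15*, a cadherin of satellite cells, was highest in Medusa at 66.5 CPM, above Montana at 52.04 CPM.

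Cardiac, smooth muscle and fat genes were measured because those tissues share some members. The 7 cardiac genes in the table summed to 234 CPM in N25 lung, 191 CPM in Montana and 100.4 CPM in Massa, and to at most 27.7 CPM in the others. *Myh6*, the cardiac myosin, was at 133 CPM in N25 lung and 169.6 CPM in Montana. *Myh7*, the myosin of slow fibers and heart, was at 1838 CPM in Montana, 67.6 CPM in N25 lung and 40.8 CPM in Oregon. Reads may be shared between *Myh6* and *Myh7*. *Ryr2*, the cardiac release channel, was at 51.1 CPM in N25 lung and 0.510 CPM in Montana, and *Tnnt2*, cardiac troponin T, at 25.2 and 19.4 CPM. The 7 smooth muscle genes, *Des* among them, summed to 5742 CPM in Montana and 4968 CPM in Oregon, most of which was *Des*. The other 6 summed to 344 CPM in Montana and 362 CPM in Oregon, below Medusa at 377 CPM, N25 lung at 509 CPM, Grilka at 631 CPM and Prince at 1608 CPM, where *Acta2*, smooth muscle actin, was at 445 CPM. The 4 genes listed for brown fat summed to 128 CPM in Montana and to at most 12.02 CPM elsewhere. In Montana the sum came from *Plin1* (73.2 CPM) and *Adipoq* (54.8 CPM), which are genes of fat cells in general. *Ucp1* and *Cidea* were at 0 there, so the sum does not name brown fat. Only 2 of the cardiac, 6 of the smooth muscle and 1 of the listed fat genes were tested in KO against WT. None passed (edgeR), and the part of these genes in the muscle values was not tested.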

How the data were processed

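RNA of 16 mouse osteosarcomas was extracted, depleted of ribosomal RNA, made into TruSeq libraries and sequenced from one end on an Illumina HiSeq instrument. Per the methods and the submitters' processing notes, the authors aligned reads with Novoalign 2.08.01 to mm10 with Ensembl splice junctions, kept the best alignment, counted reads per gene with USeq and ran DESeq2 1.26.0. The deposited values are raw counts per gene, not normalized, and no gene has a total under 6. Reads of nearly identical genes can be split between them.

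Groups came from the genotype labels, and mouse and site from the titles. The test was edgeR 4.0.16 in R 4.3.3 (TMM, glmQLFit, glmQLFTest after filterByExpr at min.count 10 and min.total.count 15, two-sided, Benjamini-Hochberg, threshold 0.05). It was fitted to the whole table without covariates. On simulated data with 200 changed genes it found 144 for KO against WT and 88 for the site comparison. A gene that was not called may therefore still differ. CPM are counts over TMM-scaled library sizes. The scaling factor was 0.409 in Massa and 0.414 in Grilka, which raises CPM there. Ratios used counts plus 0.5. Depth totals and the limit of 3 counts cover counting error only. WT tumors of 1 mouse entered as separate samples, and p-values measure only the spread between tumors. Alternatives were DESeq2 1.42.0, limma 3.58.1 (voom, mouse as a random effect, statmod 1.5.0), other size factors, no filter, counts summed per mouse and left-out tumors. Positions and exon lengths came from GENCODE vM21 (GRCm38), in which 24974 genes were found by identifier, and promoters from RefSeq. Scripts used Python 3.11.15, numpy 2.4.6, pandas 2.3.3, scipy 1.17.1 and matplotlib 3.10.9. The labels name no batch or date.

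The members and lists were chosen with earlier results of these data known. All 39 members could be named, and of each other list (other skeletal muscle, adult myosin heavy chains, developmental, cardiac and smooth muscle, brown fat, osteoblast, lung) called genes and at most the 3 most abundant. Outside this rule, *Sp7*, *Bglap*, *Bglap2*, *Dmp1*, *Cidea* and *Myh7* were named after their values were seen.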

Additional observations from a re-analysis of the deposited data

Results flagged for a closer look

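In each group of 8 tumors, the gap of the highest or lowest tumor to its nearest neighbor was divided by the range of the group and compared with Dixon's 95% critical value (0.526 for 8 samples). Of 84 groups, 2 exceeded it, while chance flags about 1 in 20. However, 2 extreme tumors close together can hide each other from this ratio. Montana and Oregon were the 2 highest tumors for 32 of the 39 genes, so the number of flags does not show how many tumors were outlying. Montana, at 7.51 log2 CPM of *Tnni1*, slow troponin I, was far above the other 7 KO tumors. Oregon, with a median log2 ratio of fast to slow isoforms of 9.52, was far above the other 7 KO tumors.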

How the results depend on the processing

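No paired analysis was possible because KO and WT tumors share no mice and their titles carry no shared replicate numbers. With DESeq2, 2517 genes in all and 1 member passed in KO against WT, the members' median fold change (log2) was −1.61, and the values of *Acta1*, *Tnni2*, *Tnnt1*, *Ttn*, *Atp2a1*, *Ckm*, *Pygm*, *Eno3* and *Mb* turned to −2.65, −2.12, −0.034, −2.03, −2.24, −2.22, −1.49, −0.67 and 1.04. With limma-voom, 17 genes passed, the median was −1.58, and *Acta1*, *Tnni2*, *Tnnt1*, *Ttn*, *Cav3*, *Atp2a1*, *Ckm* and *Pygm* turned to −1.51, −1.59, −0.30, −1.75, −1.38, −2.19, −3.45 and −0.55. Without Montana and Oregon, 372 genes and 1 member passed, the median was −4.06, and *Acta1*, *Tnni2*, *Tnnt1*, *Ttn*, *Cav3*, *Atp2a1*, *Ckm*, *Pygm*, *Pfkm* and *Eno3* turned to −4.82, −4.93, −1.97, −4.64, −4.58, −5.49, −5.33, −3.01, −0.070 and −1.57. Of the 39 members, 27 turned in sign with DESeq2, 33 with limma-voom and 37 without Montana and Oregon, and the cause was not tested. Counts summed per mouse left 10 genes called. Leaving out the 2 shallowest tumors called 890 of 16610 genes tested and 1 of the 39 members, *Pfkm*.

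Leaving out single tumors gave 252 (without N42 L shoulder) to 1348 (without Zelda) genes called in all, 0 to 1 members called (*Pfkm*, without Zelda, edgeR adjusted p = 0.0437) and a median of 2.09 (without Oregon) to 3.54 (without N43 pelvis). *Tnnt1* ranged from −0.83 to 3.52 and *Cav3* from −0.54 to 1.02, both below 0 only without Montana. *Sln* ranged from −3.26 to 0.24 and *Mb* from −1.15 to 1.01, both above 0 only without N43 pelvis. Between WT sites DESeq2 called 2 members and 31 genes, and *Ckm* ranged from −2.06 to 0.13, above 0 only without N42 R femur. With the mouse as a covariate the median was −1.82. Other size factors and no filter kept every member's sign. Depth limits Massa, where 3 members had 10 or more counts.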
